A study of Mus musculus with 6 samples.

Results

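The genes described here build the lysosome, the acidic compartment in which a cell breaks down macromolecules, together with the vacuolar ATPase, the proton pump that acidifies it. They were chosen as every gene of the deposited table whose symbol names a pump subunit or pump accessory protein (Atp6v0, Atp6v1 or Atp6ap), which gave 18 genes, and 38 further genes listed by name, all of which had a row. That makes 56 of the 12830 genes in the table. RNA was sequenced from primary mouse bone marrow stromal cells (BMSCs) under osteogenic induction, with 2 day in the labels as the time. The 3 libraries labelled CKO came from 8-week-old mice that carried a floxed Rras2 gene with a Prx1 construct (Prx1;Rras2f/f, with Cre not named in the labels), and the 3 libraries labelled Rras2FF came from mice of the same age with the floxed gene alone (Rras2f/f). Both groups therefore carried the floxed allele and received the same induction. Rras2 encodes R-Ras2, a small Ras-related GTPase also known as TC21. The Prx1 promoter is used to delete floxed genes in limb mesenchyme, so cells of blood origin in these cultures would not be expected to lose the gene. Whether the libraries within a group stem from different mice is not stated in the labels, so the p-values here reflect the spread among these libraries, and that spread may be technical.

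The vacuolar ATPase has a cytosolic V1 sector, which hydrolyses ATP, and a membrane-embedded V0 sector, whose ring of c subunits carries protons past subunit a. The acid it makes activates the hydrolases that digest protein, glycans and lipids, and lysosomal membrane proteins shield the membrane and export the products. The transcription factors TFEB, TFE3 and MITF activate many of these genes through a DNA element with the core CACGTG. In bone the pump is best known from osteoclasts, where it acidifies the space over the mineral, and macrophages are also rich in lysosomes.

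The listed counts summed to between 31934714 and 37561452 per library, and a member had between 62 and 335753 counts in a library. Levels within a gene are given in CPM, which divide counts by TMM-adjusted library size, and levels between genes in the FPKM values of the authors, which also divide by gene length. Rras2 itself had 26.7, 29.0 and 26.8 CPM in CKO replicates 1, 2 and 3, against 49.7, 50.1 and 44.7 CPM in Rras2FF replicates 1, 2 and 3. All CKO libraries lay below all Rras2FF libraries (log2 fold change -0.81, standard error (SE) 0.0683, edgeR quasi-likelihood test, adjusted p = 1.08e-05). All 10 stroma markers had a row, though Thy1 had only 30 to 60 counts per library, and macrophage transcripts were abundant. Per length, the 16 macrophage markers summed to between 16899 and 17325 FPKM in CKO and between 15718 and 16589 FPKM in Rras2FF. Lyz2 held most of that sum, with a mean of 11817 FPKM in CKO and 10995 FPKM in Rras2FF. It was left out of a second sum after the data were seen. The other 15 markers then summed to between 5185 and 5404 FPKM in CKO and between 4943 and 5143 FPKM in Rras2FF. The 10 stroma markers summed to between 3397 and 3651 FPKM in CKO and between 3816 and 3854 FPKM in Rras2FF. Without the collagen genes Col1a1 and Col1a2, left out after the data were seen, the stroma sum was between 1814 and 1947 FPKM in CKO and between 1390.1 and 1459.8 FPKM in Rras2FF. Cxcl12 held most of that sum, with a mean of 1751 FPKM in CKO and 1269 FPKM in Rras2FF. A level in such a mixed culture cannot tell a change in the number of cells of a type from a change in RNA per cell.

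The promoters are shown for the DNA element that TFEB, TFE3 and MITF recognise. RefSeq promoter windows of build GRCm38.p6, reaching from 250 bases before a gene's start to 50 bases after it, matched 46 of the 56 members. Asah1, Atp6v0a2, Atp6v0d2, Atp6v1b2, Atp6v1c1, Atp6v1g1, Atp6v1h, Ctsb, Ctsh and Npc1 had no matched window. CACGTG, which reads the same on both strands, stood in a window of 16 of these 46 members, or 34.8%, and of 1147 of the 9828 genes of the table with a window, or 11.7%. The longer palindrome TCACGTGA, which contains it, stood in 8 members, or 17.4%, and in 2.23% of the table's genes. GTCACGTG, searched on both strands and overlapping with both, stood in 11 members, or 23.9%, and in 4.76% of the table's genes. Only 1 of the 6 members that had a window and were called higher below held CACGTG, namely Atp6v0e, and 15 of the 40 uncalled members with a window held it. Below are the window of that called member, a window of a V1 subunit, that of a protease with 2 copies and that of a membrane protein with 4 copies, the most among the members. Lower-case letters run 5′ to 3′ on the gene's strand and end at the base before the start, or for Atp6v0e 20 bases after it, where the copy begins at base 4 of the transcript. Capitals mark CACGTG. The windows lie at chr17:26676146-26676415 on the plus strand for Atp6v0e, chr16:44139260-44139509 on the minus strand for Atp6v1a, chr7:142387828-142388077 on the minus strand for Ctsd and chr8:13158911-13159160 on the plus strand for Lamp1. A match is a description of these letters and not a measured binding site.
Atp6v0e: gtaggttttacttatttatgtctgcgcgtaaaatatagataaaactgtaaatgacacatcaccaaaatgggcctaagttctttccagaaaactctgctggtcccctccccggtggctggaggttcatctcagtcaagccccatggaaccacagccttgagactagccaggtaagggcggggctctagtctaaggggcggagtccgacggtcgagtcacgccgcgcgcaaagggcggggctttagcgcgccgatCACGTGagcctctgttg
Atp6v1a: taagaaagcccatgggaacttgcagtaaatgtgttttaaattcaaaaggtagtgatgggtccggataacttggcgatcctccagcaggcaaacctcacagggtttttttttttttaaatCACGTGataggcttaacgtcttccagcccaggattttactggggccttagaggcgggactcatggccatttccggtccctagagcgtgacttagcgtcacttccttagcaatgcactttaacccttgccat
Ctsd: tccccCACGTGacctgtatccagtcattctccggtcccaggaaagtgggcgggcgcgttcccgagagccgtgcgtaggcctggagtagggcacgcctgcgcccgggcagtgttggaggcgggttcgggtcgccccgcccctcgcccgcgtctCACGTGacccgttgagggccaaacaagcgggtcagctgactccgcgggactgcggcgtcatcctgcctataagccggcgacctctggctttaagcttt
Lamp1: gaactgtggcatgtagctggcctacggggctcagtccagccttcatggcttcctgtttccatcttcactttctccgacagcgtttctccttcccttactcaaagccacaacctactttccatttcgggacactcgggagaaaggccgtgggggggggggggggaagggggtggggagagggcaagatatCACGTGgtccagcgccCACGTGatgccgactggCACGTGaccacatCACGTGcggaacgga

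Per length, the pump subunits covered a wide range of levels. Atp6v0c, which encodes the ring subunit present in several copies per pump, was highest at 290.4 ± 8.66 FPKM in CKO and 260.4 ± 5.89 FPKM in Rras2FF (SD, n = 3 each). Atp6v0b was next, and Atp6v0e, Atp6v1b2 and Atp6ap1 followed with FPKM ranges that overlapped each other in both groups. At the low end stood Atp6v1d, a stalk subunit, with 24.1 ± 0.453 FPKM in CKO and 21.9 ± 0.855 FPKM in Rras2FF (SD, n = 3 each). Below it lay Atp6v0a2, a subunit a isoform, with 10.8 ± 0.245 FPKM in CKO and 12.2 ± 0.450 FPKM in Rras2FF. Atp6v1g2, a subunit G isoform best known from brain, averaged 2.73 ± 0.865 FPKM in CKO and 1.98 ± 0.693 FPKM in Rras2FF. The isoforms Atp6v1b1, Atp6v1c2, Atp6v1g3 and Atp6v0a4 are not analysed here.

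**Figure D1:**
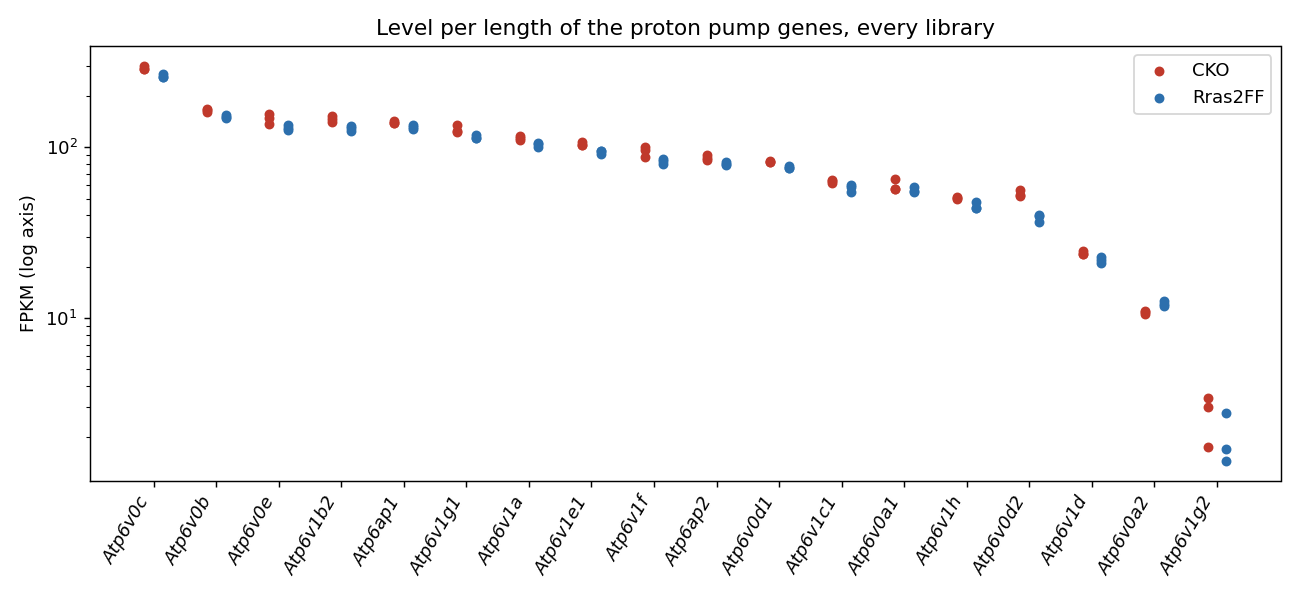
FPKM of the 18 proton pump genes in each of the 3 CKO (red) and 3 Rras2FF (blue) libraries, on a log axis, ordered by mean level. Atp6v0c is highest and Atp6v1g2 lowest, and Atp6v0a2 is the gene whose CKO points lie below its Rras2FF points.

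Across the 56 members the differences were small, and 47 members had a positive and 9 a negative log2 fold change, beside 50.2% positive over all genes. In CKO, 8 members were higher and 0 lower (edgeR quasi-likelihood test, adjusted p below 0.05 over all genes), while over all 12830 genes 2.10% were called higher and 2.74% lower, 4.84% together. The 8 were Atp6v0d2, Atp6v0c, Atp6v0e, Atp6v1b2 and Atp6v1e1 of the pump, the lipid-digestion genes Psap and Lipa, and the membrane protein gene Cd63. At an unadjusted p below 0.05, 26 members had positive and 1 had a negative log2 fold change, against 8.54% and 8.81% of all genes. The CKO and Rras2FF libraries did not overlap, with CKO above, for 31 members, beside 11.3% of all genes, and with CKO below for 1 member, beside 11.2%. The median log2 fold change was 0.094 over the members and 0.00058 over all genes.

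DESeq2 called 13 members higher, beside 2.76% of all genes, and limma-voom 4, beside 1.38%. Both called 0 members lower, beside 3.85% of all genes with DESeq2 and 2.00% with limma-voom. The authors' deposited table gave 13 members with an adjusted p below 0.05 and a positive log2 fold change, beside 2.76% of all genes. It gave 0 with a negative one, beside 3.85%. The deposited log2 fold changes of those 13 equal the DESeq2 values here, such as 0.474074 for Atp6v0d2, so that count repeats DESeq2 and is not a separate result. The count of calls moved with the library left out, while the median log2 fold change of the pump genes stayed between 0.13 and 0.17. Each such fit compares 3 libraries with 2, which by itself makes calls harder to reach. That was not told apart from the weight of a single library. Leaving out CKO replicate 1, 2 or 3 gave 13, 2 and 1 members called higher. Leaving out Rras2FF replicate 1, 2 or 3 gave 3, 1 and 1. Without CKO replicate 1 there was also 1 member called lower, Gaa (log2 fold change -0.15, edgeR adjusted p = 0.0414). The counts over all genes moved with them, with 621 genes called from all libraries. They were 1166, 325 and 341 when CKO replicate 1, 2 or 3 was left out, and 371, 268 and 379 when Rras2FF replicate 1, 2 or 3 was left out. Atp6v0d2 was called in all 15 alternative settings, and no other member was.

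**Figure D2:**
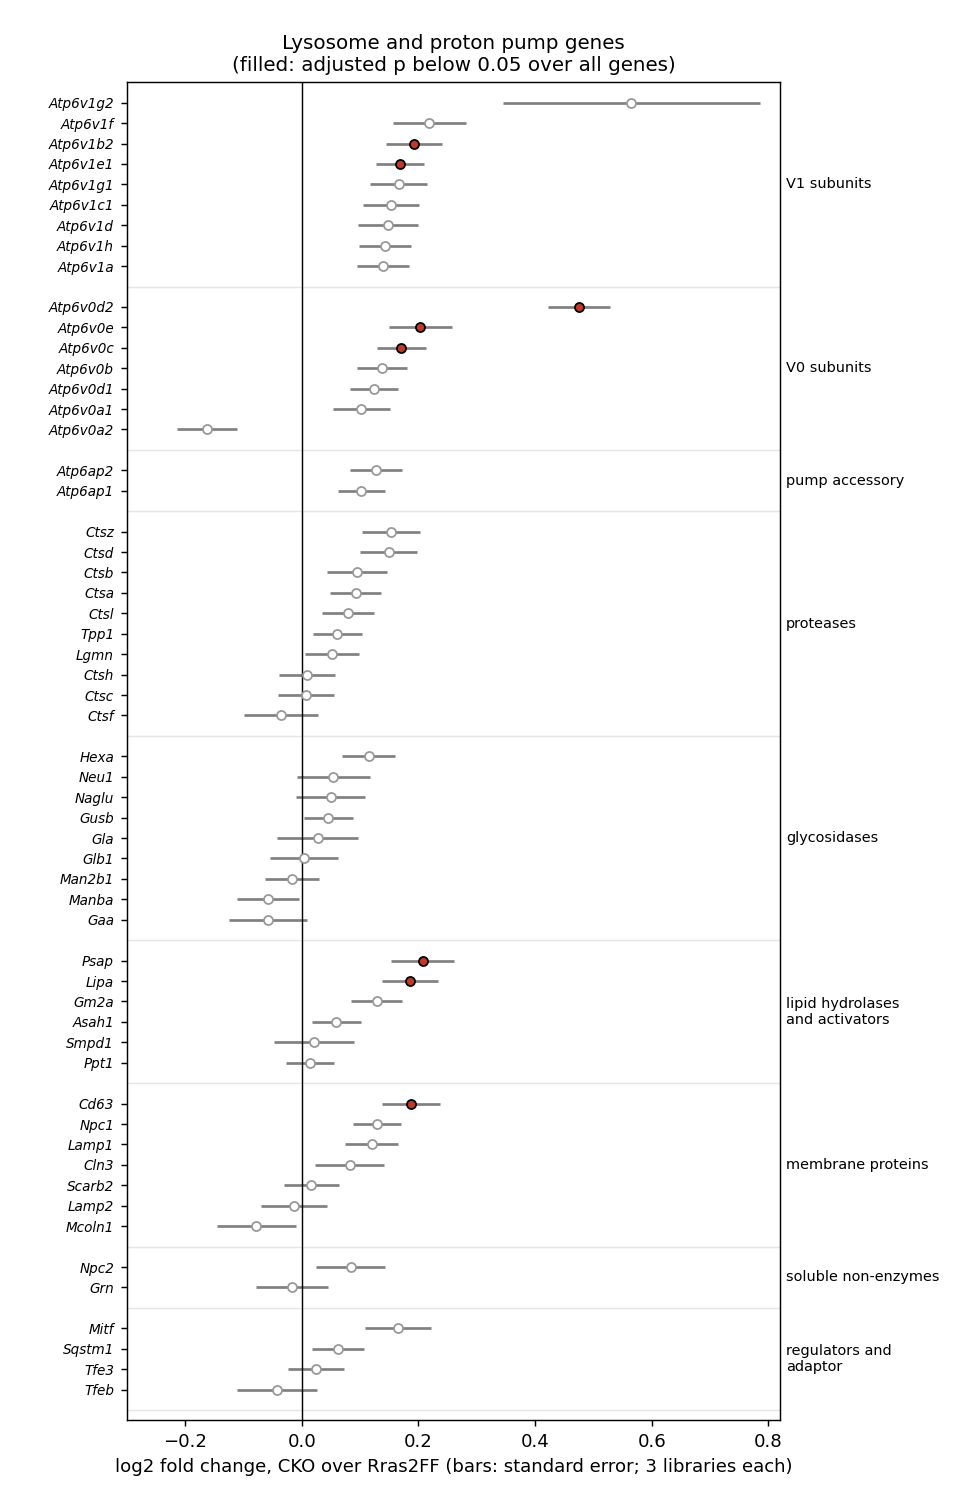
Log2 fold change of CKO over Rras2FF for each of the 56 members, grouped by role, with standard errors (SE) as bars; filled points had an edgeR adjusted p below 0.05. Of the 18 pump genes 17 lie right of 0, while the glycosidases lie around 0.

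In the V1 sector, all 9 subunits had positive log2 fold changes, between 0.14 and 0.57, with a median of 0.17. Of these, 2 rose past the threshold and 0 fell (edgeR), beside 2.10% and 2.74% of all genes. All 9 had an unadjusted p below 0.05, while 8.54% of all genes were positive at that p. Groups did not overlap for 8 of the 9, with CKO above, beside 11.3% of all genes. Atp6v1b2, the widely expressed B subunit that helps form the catalytic head, had 473, 439 and 459 CPM in CKO replicates 1, 2 and 3, against 421, 381 and 398 CPM in Rras2FF replicates 1, 2 and 3. Every CKO library thus lay above every Rras2FF library, the nearest pair being CKO replicate 2 and Rras2FF replicate 1. The log2 fold change of 0.19 had an SE of 0.0484 (edgeR adjusted p = 0.0344), and the gene is ENSMUSG00000006273, at chromosome 8 from 69088646 to 69113711, plus strand, in mm10. The adjusted p was 0.214, 0.120, 0.0504 and 0.108 without Rras2FF replicate 2, Rras2FF replicate 3, CKO replicate 2 and CKO replicate 3, 0.0701 with limma-voom and 0.0763 without robust estimation.

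Atp6v1e1, a peripheral stalk subunit, had 149, 149 and 156 CPM in CKO replicates 1, 2 and 3, against 134, 135 and 135 CPM in Rras2FF replicates 1, 2 and 3. The Rras2FF libraries lay close together, and all 3 CKO libraries were above them. The difference was 0.17 on the log2 scale, with an SE of 0.0415 (edgeR adjusted p = 0.0309; ENSMUSG00000019210, chromosome 6 from 120794305 to 120822793, minus strand). The call ended without Rras2FF replicates 1, 2 and 3 (adjusted p = 0.115, 0.131 and 0.111), without CKO replicates 2 and 3 (0.0692 and 0.148) and with limma-voom (0.0507). Atp6v1b2 and Atp6v1e1 each overlap a gene on the opposite strand, Slc18a1 and Slc25a18, and the sources used here do not give the strand setting of the counting. Many uncalled members overlap such a gene too, among them Ctsb, Ctsz, Lamp1 and Npc1, and Ctsd overlaps Gm49369 on its own strand.

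The uncalled V1 subunits followed closely behind. Atp6v1f, a central stalk subunit, had 68.0, 77.9 and 75.5 CPM in CKO replicates 1, 2 and 3, against 67.0, 60.4 and 62.9 CPM in Rras2FF replicates 1, 2 and 3. CKO replicate 1 nearly touched Rras2FF replicate 1, and the adjusted p was 0.0615 (edgeR). Without CKO replicate 1 it passed (0.00666), as did Atp6v1a, the catalytic A subunit (0.0393), and Atp6v1g1, a stalk subunit (0.0147). With all libraries the adjusted p of Atp6v1a was 0.105 at a log2 fold change of 0.14, and that of Atp6v1g1 was 0.0752 at 0.17; both were named after their values were seen. Atp6v1h, Atp6v1c1 and Atp6v1d had log2 fold changes between 0.14 and 0.15. Atp6v1g2, named after its values were seen, had 3.51, 2.56 and 3.72 CPM in CKO replicates 1, 2 and 3, against 2.05, 2.61 and 1.93 CPM in Rras2FF replicates 1, 2 and 3. The groups overlapped, and with 62 to 135 counts per library its log2 fold change of 0.57 had an SE of 0.220 (edgeR adjusted p = 0.187).

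In the V0 sector, 6 of 7 subunits had positive log2 fold changes, beside 50.2% of all genes. Of the 7, 3 were called higher and 0 lower (edgeR), beside 2.10% and 2.74% of all genes. Atp6v0d2, the subunit d isoform associated with osteoclasts and macrophages, stood apart. It had 156, 147 and 146 CPM in CKO replicates 1, 2 and 3, against 112, 99.7 and 111 CPM in Rras2FF replicates 1, 2 and 3. The lowest CKO library was well above the highest Rras2FF library. Its log2 fold change was 0.48 with an SE of 0.0529, a 1.39-fold higher level with a 95% confidence interval from 0.36 to 0.59 on the log2 scale (edgeR adjusted p = 0.000129). Over the alternative settings the log2 fold change ranged from 0.42 to 0.51 and the adjusted p from 1.10e-12 to 0.00439. ENSMUSG00000028238 is at chromosome 4 from 19876841 to 19922605, minus strand, where GENCODE places no other gene.

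Atp6v0c, the ring subunit, had 386, 369 and 373 CPM in CKO replicates 1, 2 and 3, against 337, 325 and 339 CPM in Rras2FF replicates 1, 2 and 3. The groups were clear of each other. The log2 fold change of 0.17 had an SE of 0.0418 (edgeR adjusted p = 0.0297; ENSMUSG00000024121, chromosome 17 from 24163866 to 24169702, minus strand). Without Rras2FF replicates 1, 2 and 3 the adjusted p was 0.0875, 0.181 and 0.0832, and without CKO replicates 2 and 3 it was 0.0615 and 0.0785. The genome holds processed pseudogene copies of Atp6v0c and of Cd63, so reads shared with them leave those counts less certain.

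Atp6v0e, a small subunit of the membrane sector whose promoter window is printed above, had 128, 137 and 147 CPM in CKO replicates 1, 2 and 3, against 122, 114 and 123 CPM in Rras2FF replicates 1, 2 and 3. CKO replicate 1 lay just above Rras2FF replicate 3, and the other CKO libraries were higher. A log2 fold change of 0.20 with an SE of 0.0540 resulted (edgeR adjusted p = 0.0452; ENSMUSG00000015575, chromosome 17 from 26663231 to 26699647, plus strand). The RefSeq start used for the printed window lies inside this GENCODE interval. Those used for Atp6v1a and Ctsd also lie inside their GENCODE intervals, which reach 44139705 on chromosome 16 and 142388038 on chromosome 7. The printed window thus lies wholly inside the annotated gene for Atp6v1a and mostly inside it for Ctsd. The call ended when Rras2FF replicate 1, 2 or 3 was left out (0.0896, 0.249 and 0.0968), when CKO replicate 2 or 3 was left out (0.137 and 0.223), with limma-voom (0.112) and without robust estimation (0.109).

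Of the V0 subunits that did not pass, Atp6v0b, which joins the ring, had 177, 170 and 178 CPM in CKO replicates 1, 2 and 3, against 161, 154 and 161 CPM in Rras2FF replicates 1, 2 and 3 (edgeR adjusted p = 0.0896). Here too the groups did not overlap. Atp6v0a1, the widespread subunit a isoform, had a log2 fold change of 0.10, whose 95% confidence interval ran from -0.0015 to 0.21. Atp6v0a2, a subunit a isoform of Golgi and endosomes, was the pump gene with a negative log2 fold change and was named after its values were seen. It had 63.9, 63.9 and 62.3 CPM in CKO replicates 1, 2 and 3, against 71.8, 72.9 and 68.1 CPM in Rras2FF replicates 1, 2 and 3. All CKO libraries lay below all Rras2FF libraries, but the log2 fold change of -0.16, with an SE of 0.0519, did not pass (edgeR adjusted p = 0.104). Over the alternative settings that value ranged from -0.19 to -0.14, and 0 of them called it.

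**Figure D3:**
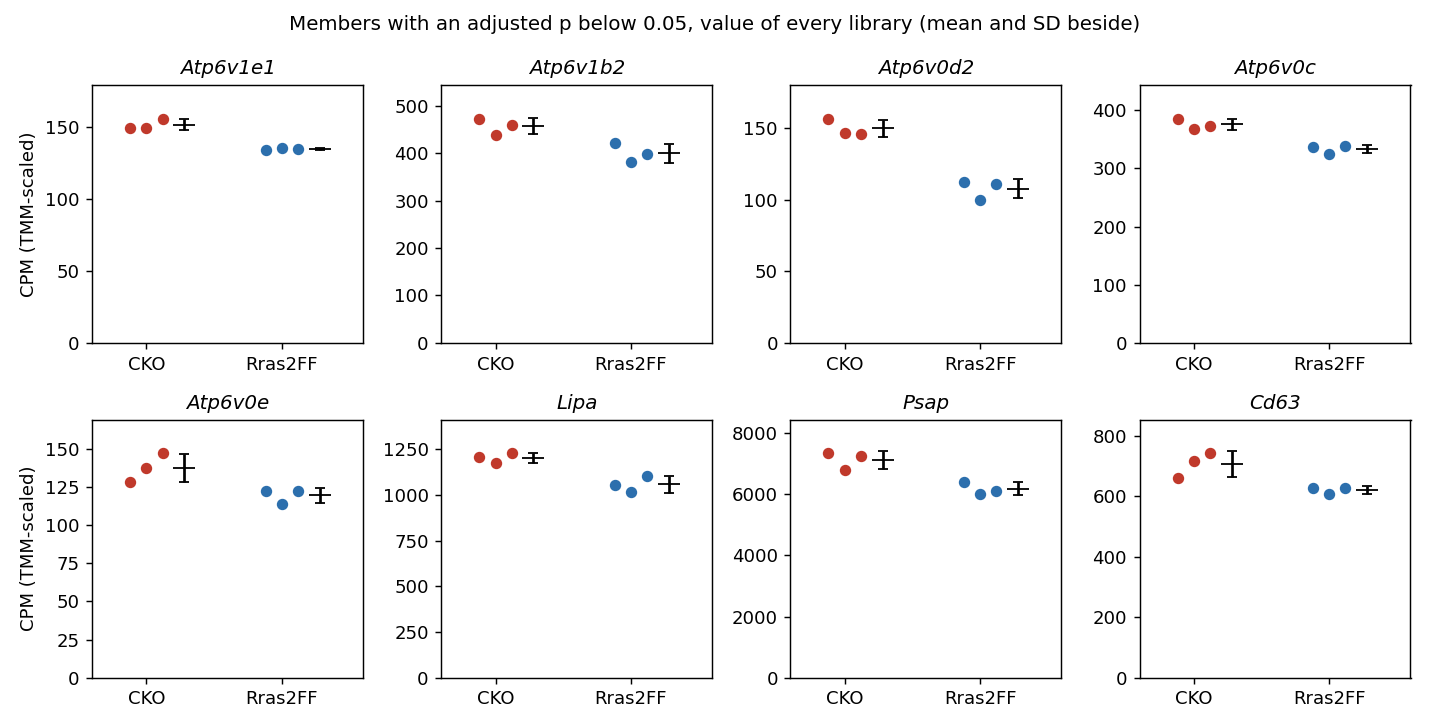
TMM-scaled CPM of the 8 called members in each library, CKO left in red and Rras2FF right in blue, with the mean and SD beside the points. In every panel the 3 CKO points lie above the 3 Rras2FF points, with the widest gap for Atp6v0d2.

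Since subunits d and a are each encoded by alternative genes, their shares were taken from the FPKM values. Atp6v0d2 made up 40.6%, 39.2% and 38.4% of the summed subunit d FPKM in CKO replicates 1, 2 and 3, against 34.4%, 32.5% and 34.2% in Rras2FF replicates 1, 2 and 3. Atp6v0d1, the ubiquitous isoform, made up the rest in each library. The mean share of Atp6v0d2 was 39.4% ± 1.12 in CKO and 33.7% ± 1.05 in Rras2FF (SD, n = 3 each), a difference of 5.66 percentage points (two-sided exact permutation test, p = 0.1, the smallest that 3 against 3 libraries allow). For Atp6v0d1 in CPM the log2 fold change was 0.12 (edgeR adjusted p = 0.119). For subunit a, Atp6v0a2 held 6.95% ± 0.448 of the summed FPKM of Atp6v0a1, Atp6v0a2 and Tcirg1 in CKO and 8.02% ± 0.296 in Rras2FF (SD, n = 3 each; exact permutation p = 0.1). Tcirg1, which encodes the a3 isoform of osteoclasts, held 54.6% ± 0.961 in CKO and 55.0% ± 2.05 in Rras2FF (exact permutation p = 0.8). Its CPM values overlapped between groups, and the log2 fold change was 0.04 (edgeR adjusted p = 0.811).

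The accessory proteins help assemble and target the pump, and both had non-overlapping groups without passing the test. Atp6ap1 had 337, 329 and 334 CPM in CKO replicates 1, 2 and 3, against 310.04, 306 and 315 CPM in Rras2FF replicates 1, 2 and 3 (edgeR adjusted p = 0.193). Atp6ap2, also known as the prorenin receptor, had 215, 229 and 224 CPM in CKO replicates 1, 2 and 3, against 213, 198 and 202 CPM in Rras2FF replicates 1, 2 and 3 (edgeR adjusted p = 0.144, and 0.0339 without CKO replicate 1). For all 18 pump genes together, 17 had positive log2 fold changes, beside 50.2% of all genes, and the median log2 fold change was 0.15. All CKO libraries lay above all Rras2FF libraries for 16 of the 18, beside 11.3% of all genes. Summed over these 18 genes the level was 3551, 3488 and 3584 CPM in CKO replicates 1, 2 and 3, against 3238, 3087 and 3209 CPM in Rras2FF replicates 1, 2 and 3.

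Hydrolases and their activators numbered 25, with a median log2 fold change of 0.05. Of these, 2 were called higher and 0 lower (edgeR), beside 2.10% and 2.74% of all genes. At an unadjusted p below 0.05, 6 had positive and 0 negative log2 fold changes, beside 8.54% and 8.81% of all genes. DESeq2 called 4 higher and limma-voom 2, beside 2.76% and 1.38% of all genes. Of the 10 proteases 0 were called, 2 had an unadjusted p below 0.05, and DESeq2 called 2, Ctsd and Ctsz. Ctsb, the gene of cathepsin B and the protease of highest mean FPKM, had 9570, 9187 and 9237 CPM in CKO replicates 1, 2 and 3, against 8935, 8635 and 8636 CPM in Rras2FF replicates 1, 2 and 3. These groups did not overlap, yet the log2 fold change of 0.10 did not pass (edgeR adjusted p = 0.367). Ctsz, the gene of cathepsin Z, had 500.3, 478 and 522 CPM in CKO replicates 1, 2 and 3, against 475, 435 and 440 CPM in Rras2FF replicates 1, 2 and 3. CKO replicate 2 lay just above Rras2FF replicate 1, and the adjusted p was 0.106 (edgeR).

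Ctsd encodes cathepsin D, the main lysosomal aspartic protease, and its promoter window above holds the CACGTG element at 2 places. Named after its values were seen, it had 4227, 4012 and 3999 CPM in CKO replicates 1, 2 and 3, against 3734, 3649.8 and 3656 CPM in Rras2FF replicates 1, 2 and 3. The groups did not overlap, and the log2 fold change of 0.15 gave an edgeR adjusted p of 0.110 and a DESeq2 adjusted p of 0.00730. The cysteine protease genes Ctsc and Ctsh had log2 fold changes of 0.01 each, and Ctsf had -0.04. Ctsa, Ctsl, Tpp1 and Lgmn lay between 0.05 and 0.09.

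Glycosidases, which trim sugars from glycoproteins, glycolipids and glycogen, had a median log2 fold change of 0.03, beside 0.07 for proteases and 0.09 for lipid digestion. Of 9 members edgeR called 0, beside 2.10% of all genes higher and 2.74% lower. DESeq2 called 0, beside 2.76% and 3.85%, and limma-voom 0, beside 1.38% and 2.00%. At an unadjusted p below 0.05, 1 was positive and 0 negative, beside 8.54% and 8.81% of all genes. Log2 fold changes were positive for 6, beside 50.2% of all genes, and negative for 3, between -0.06 and 0.11. Hexa, which encodes the alpha subunit of beta-hexosaminidase, had 832, 790 and 852 CPM in CKO replicates 1, 2 and 3, against 779, 742 and 763 CPM in Rras2FF replicates 1, 2 and 3. It was the glycosidase with non-overlapping groups, with CKO above, beside 11.3% of all genes (edgeR adjusted p = 0.204). Gusb, Neu1, Naglu, Gla and Glb1 had log2 fold changes between 0.0043 and 0.05, Man2b1 had -0.02 and Manba -0.06. For Gaa, the acid glucosidase of glycogen, named after its values were seen, the groups overlapped, with 217, 188 and 176 CPM in CKO replicates 1, 2 and 3, against 206, 202 and 197 CPM in Rras2FF replicates 1, 2 and 3. CKO replicate 1 was the highest of the 6 libraries and the other CKO libraries the lowest, and the log2 fold change was -0.06 (edgeR adjusted p = 0.731).

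Among the 6 genes of lipid digestion 2 were called higher and 0 lower (edgeR), beside 2.10% and 2.74% of all genes. All 6 had positive log2 fold changes, beside 50.2% of all genes. Psap, whose product is cut into the saposins that present sphingolipids to their hydrolases, had 7344, 6801 and 7270 CPM in CKO replicates 1, 2 and 3, against 6419, 6006 and 6121 CPM in Rras2FF replicates 1, 2 and 3. No libraries overlapped. The log2 fold change was 0.21, with an SE of 0.0537 (edgeR adjusted p = 0.0394; ENSMUSG00000004207, chromosome 10 from 60277627 to 60302597, plus strand). The adjusted p was 0.225, 0.142 and 0.139 without Rras2FF replicate 2, Rras2FF replicate 3 and CKO replicate 3, and 0.117 without robust estimation. Per length Psap was the most abundant of all members, at 2449 ± 98.6 FPKM in CKO and 2138 ± 36.1 FPKM in Rras2FF (SD, n = 3 each).

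Lipa, the acid lipase that frees cholesterol and fatty acids, had 1207, 1175 and 1229 CPM in CKO replicates 1, 2 and 3, against 1053, 1016 and 1105 CPM in Rras2FF replicates 1, 2 and 3. The groups again did not overlap, with a log2 fold change of 0.19 and an SE of 0.0473 (edgeR adjusted p = 0.0366; ENSMUSG00000024781, chromosome 19 from 34492318 to 34527474, minus strand). Without Rras2FF replicates 1, 2 and 3 its adjusted p was 0.115, 0.230 and 0.0521, and without CKO replicates 2 and 3 it was 0.0705 and 0.140, while without robust estimation it was 0.0708. Gm2a, an activator for ganglioside breakdown, had 196, 199.9 and 195 CPM in CKO replicates 1, 2 and 3, against 189.7, 176 and 175 CPM in Rras2FF replicates 1, 2 and 3 (edgeR adjusted p = 0.136). Asah1, Smpd1 and Ppt1, which act on ceramide, sphingomyelin and protein-bound fatty acids, had log2 fold changes between 0.01 and 0.06.

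The membrane proteins were mixed, with 5 positive and 2 negative log2 fold changes among 7. Of these, 1 was called higher and 0 lower (edgeR), beside 2.10% and 2.74% of all genes. DESeq2 called 2 higher and limma-voom 0, beside 2.76% and 1.38% of all genes. Cd63, a tetraspanin of late endosomes and exosomes, had 661, 718 and 743 CPM in CKO replicates 1, 2 and 3, against 629, 608 and 627 CPM in Rras2FF replicates 1, 2 and 3. CKO replicate 1 was the nearest to the Rras2FF libraries. Its log2 fold change was 0.19, with an SE of 0.0494 (edgeR adjusted p = 0.0444; ENSMUSG00000025351, chromosome 10 from 128900989 to 128912822, plus strand). Without Rras2FF replicates 1, 2 and 3 its adjusted p was 0.104, 0.224 and 0.119, without CKO replicates 2 and 3 it was 0.153 and 0.202, with limma-voom 0.0808 and without robust estimation 0.0917.

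Lamp1, a heavily glycosylated coat protein of the lysosomal membrane whose promoter window above holds 4 copies of the element, had 1865, 1873 and 1920 CPM in CKO replicates 1, 2 and 3, against 1764, 1719 and 1725 CPM in Rras2FF replicates 1, 2 and 3. Its groups did not overlap (edgeR adjusted p = 0.168, DESeq2 adjusted p = 0.0359). Lamp2, its relative with a role in autophagy, likewise named after its values were seen, had 697, 780 and 790 CPM in CKO replicates 1, 2 and 3, against 810, 741 and 736 CPM in Rras2FF replicates 1, 2 and 3. These overlapped, and the log2 fold change of -0.01 had a 95% confidence interval from -0.13 to 0.11. Npc1, the cholesterol exporter, had 192, 193 and 200.3 CPM in CKO replicates 1, 2 and 3, against 178, 179 and 178 CPM in Rras2FF replicates 1, 2 and 3, which did not overlap (edgeR adjusted p = 0.0994, and 0.0374 without CKO replicate 1). Mcoln1, the calcium channel TRPML1, had a log2 fold change of -0.08, Scarb2 one of 0.02 and Cln3 one of 0.08.

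Both soluble non-enzyme genes overlapped between groups. Grn, the progranulin gene, had 1324, 1229 and 1336 CPM in CKO replicates 1, 2 and 3, against 1446, 1257 and 1233 CPM in Rras2FF replicates 1, 2 and 3, and its log2 fold change was -0.02 (edgeR adjusted p = 0.926). Npc2, which hands cholesterol to Npc1, had 933, 909 and 979 CPM in CKO replicates 1, 2 and 3, against 976, 832 and 854 CPM in Rras2FF replicates 1, 2 and 3 (log2 fold change 0.08, edgeR adjusted p = 0.527). In both genes Rras2FF replicate 1 was the highest Rras2FF library.

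**Figure D4:**
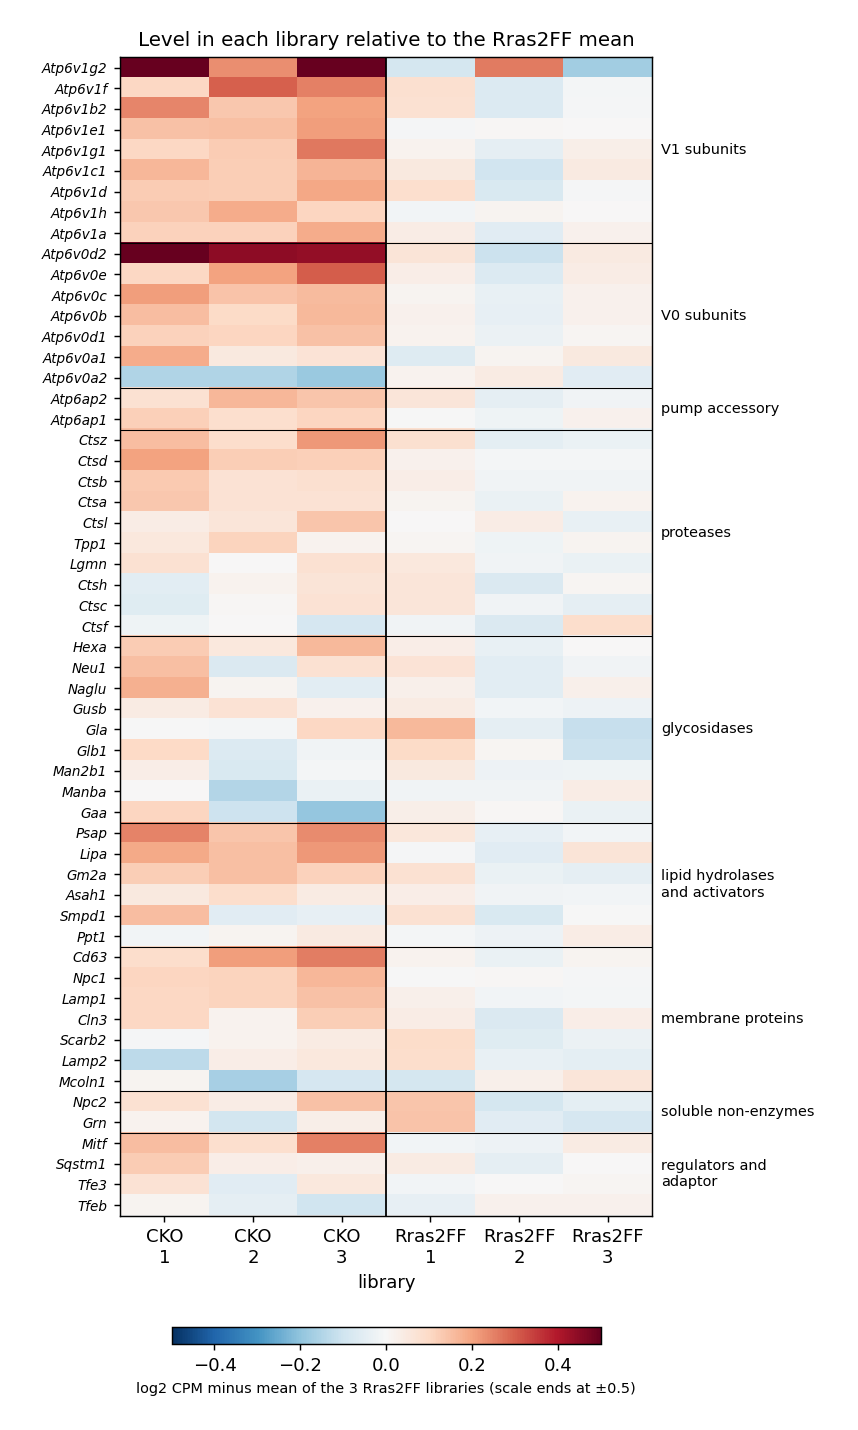
Log2 CPM of each member in each library minus its mean over the 3 Rras2FF libraries, with CKO columns on the left and colour ending at ±0.5. Pump genes other than Atp6v0a2 are red in all 3 CKO columns, whereas several glycosidases are red in CKO replicate 1 and blue in CKO replicate 2.

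The regulators of lysosomal genes and the adaptor, 4 genes together, had 0 calls (edgeR), beside 2.10% of all genes higher and 2.74% lower. DESeq2 called 0, beside 2.76% and 3.85%, and limma-voom 0, beside 1.38% and 2.00%. With 4 genes, 0 calls cannot be told from these shares. Mitf had an unadjusted p below 0.05 and was positive, as were 8.54% of all genes at that p. Tfeb had 26.6, 25.6 and 24.6 CPM in CKO replicates 1, 2 and 3, against 25.6, 26.7 and 26.7 CPM in Rras2FF replicates 1, 2 and 3. The groups overlapped, and the log2 fold change of -0.04 had a 95% confidence interval from -0.19 to 0.10 (edgeR adjusted p = 0.812). Tfe3 had 100.5, 92.0 and 99.2 CPM in CKO replicates 1, 2 and 3, against 94.8, 95.7 and 96.3 CPM in Rras2FF replicates 1, 2 and 3. Its log2 fold change of 0.02 had an interval from -0.08 to 0.13 (edgeR adjusted p = 0.856). Mitf, also a regulator of osteoclasts, had 70.0, 66.7 and 74.8 CPM in CKO replicates 1, 2 and 3, against 62.2, 61.7 and 64.7 CPM in Rras2FF replicates 1, 2 and 3. Its groups did not overlap, with a log2 fold change of 0.17 and an SE of 0.0566 (edgeR adjusted p = 0.129). Sqstm1, the autophagy adaptor p62, had 348, 326 and 324 CPM in CKO replicates 1, 2 and 3, against 328, 309 and 320 CPM in Rras2FF replicates 1, 2 and 3, with overlap between the groups (edgeR adjusted p = 0.537). Transcript levels do not show where these factors are in the cell, which is how TFEB and TFE3 are mainly controlled.

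Further genes of the same pathway were counted from wider lists. Over all genes edgeR called 2.10% higher and 2.74% lower. At an unadjusted p below 0.05, 8.54% of all genes were positive and 8.81% negative. Of 22 other lysosomal hydrolases and cofactors 0 were called by edgeR, DESeq2 or limma-voom, with 3 positive and 0 negative at an unadjusted p below 0.05 and a median log2 fold change of 0.03. Of 19 other lysosomal membrane proteins 0 were called by the same tools, with 3 positive and 0 negative at an unadjusted p below 0.05 and a median of 0.08. The list of subunit a3 and pump assembly factors had 0 calls of 10 by these tools, with 2 positive at an unadjusted p below 0.05, and the hydrolase sorting genes had 0 of 9, with 0 at an unadjusted p below 0.05. Among 20 genes of the Rag, Ragulator and TORC1 machinery, which senses amino acids on the lysosome, 1 rose and 0 fell (edgeR). That gene was Lamtor2, a Ragulator subunit, with 40.7, 46.4 and 52.7 CPM in CKO replicates 1, 2 and 3, against 38.6, 37.4 and 37.0 CPM in Rras2FF replicates 1, 2 and 3 (log2 fold change 0.31, adjusted p = 0.0485). The CKO libraries were spread out but all above the Rras2FF libraries. Its adjusted p was 0.115, 0.191 and 0.155 without Rras2FF replicates 1, 2 and 3, 0.163 and 0.192 without CKO replicates 2 and 3, 0.0618 when blocked on replicate number, 0.129 with limma-voom and 0.123 without robust estimation.

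Of 20 autophagy genes 1 rose and 1 fell (edgeR), beside 2.10% and 2.74% of all genes. Optn, the autophagy receptor optineurin, had 38.2, 35.0 and 37.1 CPM in CKO replicates 1, 2 and 3, against 55.4, 54.7 and 52.5 CPM in Rras2FF replicates 1, 2 and 3. The groups lay far apart, at a log2 fold change of -0.56 with an SE of 0.0604 (edgeR adjusted p = 0.0001), and all 15 alternative settings called it. Gabarapl1, a protein of the autophagosome membrane, had 132, 140.4 and 139.7 CPM in CKO replicates 1, 2 and 3, against 117, 118 and 128 CPM in Rras2FF replicates 1, 2 and 3. The groups did not overlap (log2 fold change 0.18, edgeR adjusted p = 0.0459). That call ended without Rras2FF replicates 1 and 2 (0.178 and 0.233), without CKO replicates 2 and 3 (0.164 and 0.162), with limma-voom (0.0896), without robust estimation (0.0887) and with library totals alone (0.0511).

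Markers of cell types were read in the same libraries, and their directions differed between and within lists. The summed level of the 16 macrophage markers was 27463, 27027 and 27869 CPM in CKO replicates 1, 2 and 3, against 25718, 24929 and 26306 CPM in Rras2FF replicates 1, 2 and 3, so these groups did not overlap either. Of the 16, 2 were called higher and 1 lower (edgeR), beside 2.10% and 2.74% of all genes. Positive log2 fold changes were seen for 13, beside 50.2% of all genes, the median was 0.05, and 0 were at 0. The called genes were Tyrobp, a signalling adaptor, and Mrc1, the mannose receptor, with log2 fold changes of 0.26 and 0.18 (edgeR adjusted p = 0.011 and 0.0486), and Cd14, the endotoxin co-receptor, with -0.18 (0.0198). Csf1r, the receptor for macrophage colony-stimulating factor, had 0.02, and Adgre1, which encodes F4/80, had 0.01 (edgeR adjusted p = 0.911 and 0.922). Lyz2, the lysozyme gene, held most of the sum, and without it, an alternative chosen after seeing the data, the sums of the other 15 overlapped. They were 10426, 10097 and 10431 CPM in CKO replicates 1, 2 and 3, against 10155, 9629.5 and 9766 CPM in Rras2FF replicates 1, 2 and 3.

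For the lists that follow, edgeR called 2.10% of all genes higher and 2.74% lower. DESeq2 called 2.76% and 3.85%, and limma-voom 1.38% and 2.00%. At an unadjusted p below 0.05, 8.54% of all genes were positive and 8.81% negative. All 14 osteoclast markers had positive log2 fold changes, beside 50.2% of all genes, with a median of 0.17. Of these markers 0 passed (edgeR, DESeq2 and limma-voom) and 1 had an unadjusted p below 0.05. Their summed level was 2287, 1918 and 1885 CPM in CKO replicates 1, 2 and 3, against 2123, 1663 and 1665 CPM in Rras2FF replicates 1, 2 and 3. The groups overlapped, as Rras2FF replicate 1 was above CKO replicates 2 and 3. Acp5, the osteoclast acid phosphatase, and Ctsk, the collagen-digesting cathepsin, had log2 fold changes of 0.21 and 0.16 (edgeR adjusted p = 0.683 and 0.744). The 8 osteoblast markers summed to 9886, 9234 and 8334 CPM in CKO replicates 1, 2 and 3, against 13226, 12581 and 12207 CPM in Rras2FF replicates 1, 2 and 3, with 3 called lower and 0 higher by edgeR, and 7 lower by DESeq2 and by limma-voom. Of the 10 stroma markers 2 were called higher and 2 lower (edgeR), with Cxcl12 and Lepr at log2 fold changes of 0.47 each, Col1a1 at -0.59, also an osteoblast marker here, and Col1a2 at -0.44. Their sum was 16586, 16175 and 14857 CPM in CKO replicates 1, 2 and 3, against 19661, 18798 and 18678 CPM in Rras2FF replicates 1, 2 and 3. Without both collagen genes the direction of the sum turned. It was 5310.3, 5635 and 5545 CPM in CKO replicates 1, 2 and 3, against 4133, 4113 and 4263 CPM in Rras2FF replicates 1, 2 and 3. Cxcl12 held most of that sum, with 4636, 4969 and 4910 CPM in CKO replicates 1, 2 and 3. In Rras2FF replicates 1, 2 and 3 Cxcl12 had 3425, 3427 and 3597 CPM. Of those 8 remaining markers, 4 had positive and 4 negative log2 fold changes. Of 8 listed markers of B and plasma cells 4 had a row, and 3 of these were called higher, with sums between 295 and 357 CPM in CKO and between 181 and 198 CPM in Rras2FF. All 8 neutrophil markers had negative log2 fold changes, with a median of -0.22, and 0 calls (edgeR), 1 lower with DESeq2, 0 with limma-voom and 1 negative at an unadjusted p below 0.05, and their sums overlapped between groups. The part of any of these cell types in the levels of the pump and lysosome genes was not tested.

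**Figure D5:**
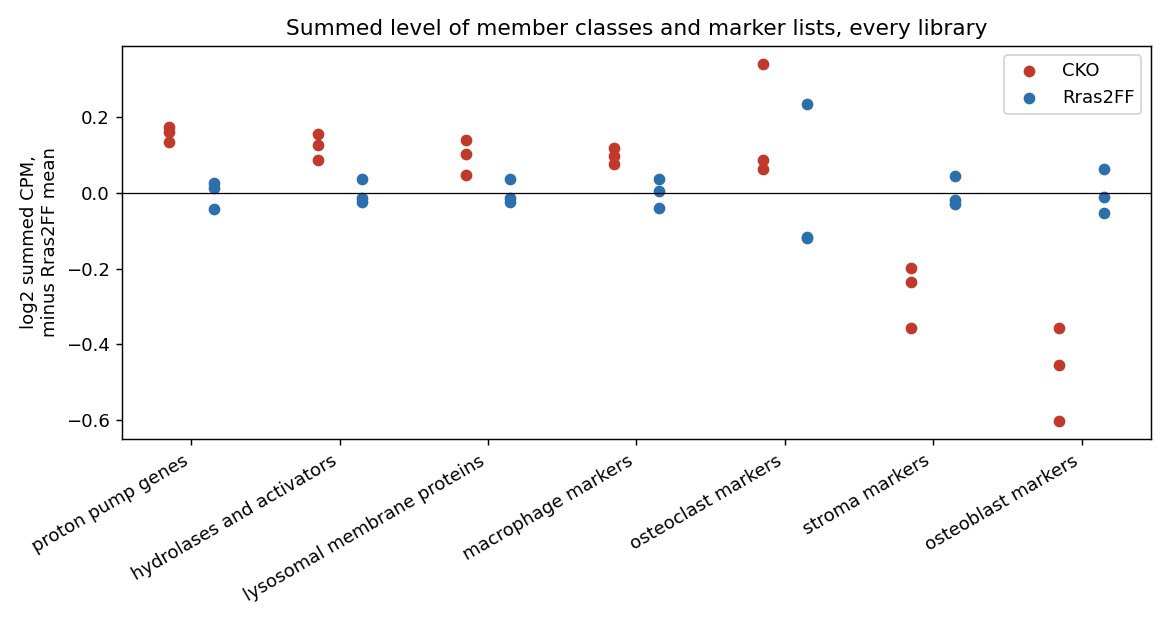
Log2 of the summed CPM of 3 classes of members and 4 marker lists in each library, minus the mean of the 3 Rras2FF libraries, with CKO in red and Rras2FF in blue. The pump, hydrolase, membrane protein and macrophage sums lie higher in every CKO library than in every Rras2FF library. For membrane proteins the gap is narrow, with 3687 CPM in CKO replicate 1 against 3661 CPM in Rras2FF replicate 1. The osteoclast sums overlap, and the stroma and osteoblast sums, of which Col1a1 is a part in both, lie lower in CKO. Without Col1a1 and Col1a2 the stroma sum, then mostly Cxcl12, lies higher in CKO, and without Lyz2 the macrophage sums overlap.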

How the data were processed

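Gene counts per library were deposited by the authors and are not normalized. FPKM values, which divide by gene length and library size, were deposited by the authors and used for levels between genes. The deposited table also held the authors' log2 fold change and p-value columns. Reads were mapped to mm10, per the submitters' processing notes, from a stranded mRNA kit, per the labels' protocols. The aligner, the counter with its strand setting and the authors' choice of test were not given in the sources used here. Differences were computed in edgeR 4.0.16 (R 4.3.3; TMM, filterByExpr, which removed 0 genes, robust quasi-likelihood F test, no covariates), with Benjamini-Hochberg adjustment over 12830 genes and calls below 0.05. The lowest mean count of a listed gene was 22.3 per library. The script was tested on simulated data. DESeq2 1.42.0 and limma-voom (limma 3.58.1) were alternatives, beside other scalings and filters, no robust estimation, a replicate block and leaving out each library. Members and lists were chosen with earlier results of these data known, so no list was tested. Each called member, the highest in FPKM and the uncalled member of smallest p in each role, and the 4 regulators and adaptor were given per library; members named after their values were seen are marked. Coordinates came from GENCODE M21. Members had at least 62 counts in every library, and each group had 3 libraries.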

Additional observations from a re-analysis of the deposited data

How the results depend on the processing

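Over 15 alternative settings, results for single genes and class medians were kept 483 times, lost a call 56 times, gained a call 11 times and turned direction 4 times. A single gene was kept if its direction and side of the threshold stayed. A median, which has no threshold, was kept if it moved by less than the SD of the 3 CKO library medians. The kept results include genes uncalled in both fits. They also include the setting without a filter, which repeats the main fit because filterByExpr removed 0 genes. Of the called members, Atp6v0d2 was called in all 15 settings and each of the others in between 8 and 11. The count of members called higher, 8 at first, was 13 with DESeq2, 4 with limma-voom and 3 without robust estimation, and ranged from 1 to 13 when 1 library was left out. The count called lower ranged from 0 to 1. Genes called in all, 621 at first, numbered 399 without robust estimation and between 268 and 1166 with 1 library left out. Other scalings, filters and the replicate block gave 8 members. Turns of direction came with libraries left out: Grn ranged from -0.0594 to 0.0565, Tfe3 from -0.000206 to 0.0624 and Gaa from -0.15 to 0.00568 on the log2 scale. Causes were not tested. With the replicate number as a block 669 genes were called. Deviations of same-numbered libraries correlated at -0.04, 0.09 and -0.10. Those of differently numbered libraries correlated at between -0.19 and 0.21. With 3 libraries in each group, these values cannot decide whether same-numbered libraries were paired. At least 5 CPM in 3 libraries removed Atp6v1g2.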
